A study of Mus musculus with 11 samples.

Results

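The 10 genes described here encode the cystine importer xCT, its partners and the glutathione and quinone defences that it feeds: Slc7a11, Slc3a2, Cd44, Gclc, Gclm, Gsr, Gpx2, Nqo1, Txnrd1 and Gsta1. They were taken by symbol from the 34866 genes of the deposited table, and all 10 were among the 14889 genes with enough counts to be tested. Slc7a11 was chosen by its measured level, which differed between the ATP4B-DTR and GIF-DTR lines, so its values in every comparison with either of those lines are a description with no test. The other 9 genes were listed around it. They and the pathway lists used below were chosen with earlier results of these data known. Their shares beside those of all tested genes are therefore a description. The comparison of GIF-DTR with ATP4B-DTR, in which Slc7a11 was picked, is a description for all 10.

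Bulk RNA sequencing was done on mouse gastric corpus mucosa, the acid-secreting body of the stomach, in 11 samples of 4 genotypes. The controls were wild-type (WT, n = 2), and the single lines were ATP4B-DTR and GIF-DTR, with GIF/ATP4B-DTR as the double line (n = 3 each), where DTR is the diphtheria toxin receptor, Atp4b is a proton pump gene of parietal cells and Gif (intrinsic factor) is a gene of mouse chief cells. The design was the ablation of chief and parietal cells, so the lines compare loss aimed at parietal cells, at chief cells and at both. The labels used here do not give the toxin treatment of any group, the controls included, nor the time after it, the age of the mice or the exact construct that carries each receptor, and the p-values measure the spread between samples whose separate origin in mice is not stated.

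xCT, the light chain SLC7A11, imports cystine in exchange for glutamate and reaches the cell surface bound to the heavy chain SLC3A2, which also serves other amino acid transporters. CD44 is a hyaluronan receptor whose variant forms are known to hold xCT at the membrane in gastric cancer cells, and it marks spasmolytic polypeptide-expressing metaplasia after parietal cell loss. Cystine supplies cysteine for glutathione, which is made by glutamate-cysteine ligase, kept reduced by glutathione reductase and used by peroxidases and transferases. Many of these genes are targets of the transcription factor NRF2 through antioxidant response elements, and Slc7a11 is also a target of ATF4, the amino acid and stress response factor, through amino acid response elements.

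The 250 bases upstream of the RefSeq start of Slc7a11 and of Gclm are shown because they hold matches to those elements and because these genes carry much of the pattern below. They are RefSeq sequences of GRCm38.p6, printed 5′ to 3′ on the gene's strand, from chr3:50443614-50443863 (minus strand) for Slc7a11 and chr3:122245307-122245556 (plus strand) for Gclm. Capitals mark matches to the amino acid response element TGATGNAA in Slc7a11 and to the antioxidant response element core TGACNNNGC in Gclm, both searched on both strands.
Slc7a11: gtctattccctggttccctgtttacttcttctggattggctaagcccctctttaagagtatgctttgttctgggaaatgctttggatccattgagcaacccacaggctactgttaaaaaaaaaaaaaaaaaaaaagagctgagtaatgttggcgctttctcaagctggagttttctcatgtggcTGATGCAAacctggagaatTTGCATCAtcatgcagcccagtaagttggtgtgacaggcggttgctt
Gclm: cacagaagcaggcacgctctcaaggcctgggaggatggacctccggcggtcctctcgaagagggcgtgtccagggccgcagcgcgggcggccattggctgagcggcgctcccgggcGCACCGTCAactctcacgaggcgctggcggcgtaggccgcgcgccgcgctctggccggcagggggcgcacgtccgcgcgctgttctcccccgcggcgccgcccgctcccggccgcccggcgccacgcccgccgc
In Slc7a11 the TGATGNAA matches lay 66 to 59 bases upstream of the start and, on the other strand, where it is printed as TTGCATCA, 47 to 40 bases upstream. In Gclm the match was on the other strand, 134 to 126 bases upstream, and is printed as GCACCGTCA. Of 32851 mouse windows of the same 250 bases, 3.45% held TGATGNAA and 10.16% held TGACNNNGC. At least 2 matches to TGATGNAA, as in Slc7a11, were in 13 windows (0.04%). Windows were found for 8 of the 10 genes, with none listed for Gclc and Gsr. One of the Txnrd1 windows held TGACNNNGC, 92 to 84 bases upstream on the other strand, and the windows of Slc3a2, Cd44, Gpx2, Nqo1 and Gsta1 held neither motif. A match is a description of letters and not evidence of binding.

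Libraries held 20.7 M to 27.9 M counts (M is 1000000), and the lowest count of any of the 10 genes in any sample was 149 (Cd44), far above the 3 counts below which a gene could not be seen. The sums of 13 parietal cell markers were 19180 to 20910 CPM (counts per 1000000, TMM-scaled) in control, 7256 to 8139 in ATP4B-DTR, 10420 to 12590 in GIF-DTR and 4816 to 5601 in GIF/ATP4B-DTR. Those of 9 chief cell markers were 108400 to 225800, 24320 to 81830, 5890 to 26120 and 3425 to 16730 CPM in the same order, so the labelled tissue held both cell types. The Y-linked genes Ddx3y and Eif2s3y were summed as counts per 1000000 without TMM scaling. They gave between 67.4 and 123.5 in both controls, in ATP4B-DTR sample 1 and in all GIF/ATP4B-DTR samples, and at most 0.17 in the other 5 samples, which include all of GIF-DTR. Every difference between GIF-DTR and control or GIF/ATP4B-DTR is therefore also a difference in Y-linked expression, and these cannot be told apart there. Only ATP4B-DTR holds samples of both kinds. Any covariate for Y-linked expression below is therefore estimated from ATP4B-DTR sample 1 against ATP4B-DTR samples 2 and 3.

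Across the other 9 genes, 7 passed the test in ATP4B-DTR against control (6 higher, 1 lower), where 21.6% of all tested genes passed. In GIF-DTR 3 passed (2 higher, 1 lower), against 16.8% of tested genes, and in GIF/ATP4B-DTR 8 passed (7 higher, 1 lower), against 33.6%. The background by direction was 12.2%, 9.97% and 18.2% higher and 9.39%, 6.82% and 15.4% lower in the same order. No overlap between line and control samples was seen for 8, 5 and 9 of the 9 genes, against 48.5%, 48% and 56.3% of tested genes. Their median log2 fold changes were 0.84, 0.37 and 1.24, where those of all tested genes were -0.01, -0.01 and -0.04. In bulk tissue fewer cells of a type and less RNA per cell cannot be told apart, which holds for every value below. The 2 controls are the reference for all 3 of these comparisons, so the comparisons share that error. A change means an adjusted p under 0.05 in edgeR's quasi-likelihood test. Without control 2 the count in ATP4B-DTR was 4 (background 8.51%), and it was 5 without control 1 (13.8%) and with a covariate for Y-linked expression (12.4%). In GIF-DTR the count was 0 without control 1 (background 7.31%) or GIF-DTR sample 3 (7.34%), and 1 without control 2 (5.63%), without GIF-DTR sample 2 (10.9%) and with the covariate (2.94%). In GIF/ATP4B-DTR it was 7 without control 2 (18.6%).

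**Figure D1:**
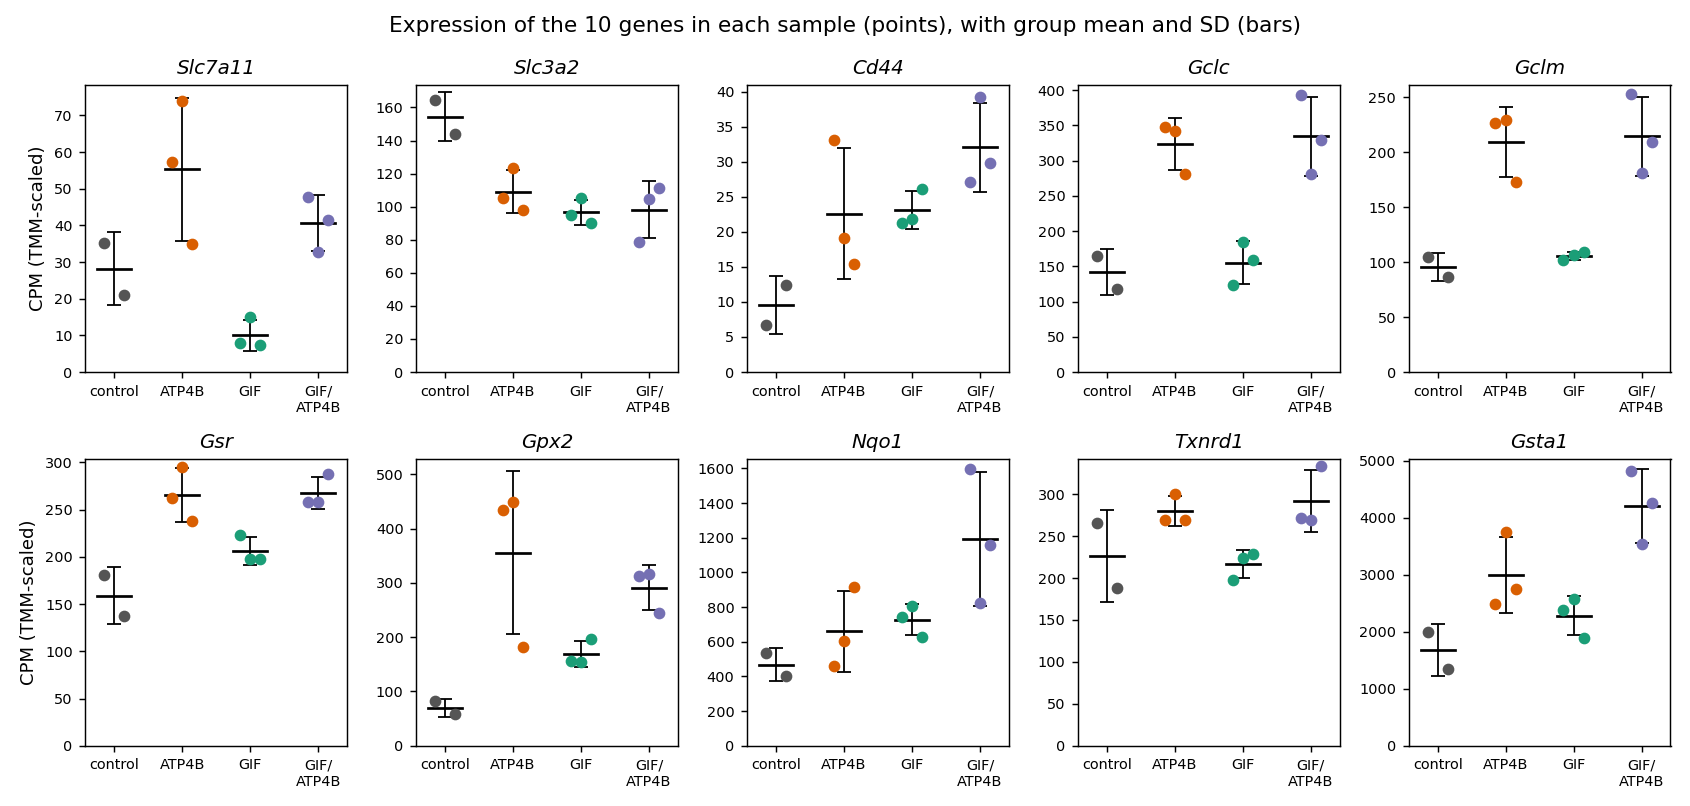
Expression of each of the 10 genes (y axis, TMM-scaled CPM, each panel from 0) in every sample (points) of the 4 groups (x axis), with the group mean (line) and SD (bar). Gclc and Gclm separate ATP4B-DTR and GIF/ATP4B-DTR from control and GIF-DTR, Slc3a2 is highest in control, Cd44 lowest in control and Slc7a11 lowest in GIF-DTR.

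Slc7a11, the light chain of xCT, stood at 35.3 and 21.1 CPM in the controls. It reached 57.2, 73.9 and 34.9 CPM in the ATP4B-DTR samples, 7.85, 14.9 and 7.30 CPM in the GIF-DTR samples, and 47.7, 32.7 and 41.5 CPM in the GIF/ATP4B-DTR samples. All GIF-DTR samples lay below all samples of the other groups, whereas the ATP4B-DTR and GIF/ATP4B-DTR samples overlapped with control. As a description, GIF-DTR was 5.51-fold below ATP4B-DTR (log2 fold change -2.46 ± 0.36, SE), and the means were 28.2 ± 10.02 CPM (SD, n = 2) for control, 55.3 ± 19.5 CPM for ATP4B-DTR and 10.02 ± 4.24 CPM for GIF-DTR (n = 3 each). Against control the log2 differences were 0.97 in ATP4B-DTR (1.39 without control 1) and -1.49 in GIF-DTR (-1.07 without control 1), and GIF/ATP4B-DTR exceeded GIF-DTR by 2.02. The tested comparison, GIF/ATP4B-DTR (40.6 ± 7.54 CPM) with control, gave 0.52 ± 0.38 and did not pass (edgeR adjusted p = 0.313). Its value ranged from 0.20 to 0.95 when each sample was left out or another setting was used, with adjusted p from 0.144 to 0.806. The interaction, which subtracts the GIF-DTR difference from control from the difference of GIF/ATP4B-DTR from ATP4B-DTR, was 1.05 ± 0.51 for Slc7a11, also a description. The gene lies at chr3:49892526-50443614 on the minus strand of mm10 (ENSMUSG00000027737.10), and its counts were fractional in 10 of 11 samples, as when reads are divided between genes of shared sequence, so its level is less certain.

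Slc3a2, the heavy chain (CD98hc), was lower in all 3 lines. The controls had 165 and 144 CPM, against 105, 123 and 98.0 CPM in the ATP4B-DTR samples, 94.98, 105 and 89.9 CPM in the GIF-DTR samples, and 78.8, 104.5 and 111 CPM in the GIF/ATP4B-DTR samples. Every line sample was below both controls. It fell by 0.50 ± 0.16 on the log2 scale in ATP4B-DTR (adjusted p = 0.0483), by 0.68 ± 0.16 in GIF-DTR (adjusted p = 0.0184) and by 0.65 ± 0.16 in GIF/ATP4B-DTR (adjusted p = 0.0103). The calls for ATP4B-DTR and GIF-DTR were lost when either control was left out (to -0.40 and -0.60 for ATP4B-DTR without control 1 and 2, and to -0.57 and -0.77 for GIF-DTR), and the ATP4B-DTR call also without ATP4B-DTR sample 1 (-0.49) or 3 (-0.43), GIF-DTR sample 1 (-0.50), 2 (-0.50) or 3 (-0.51), and GIF/ATP4B-DTR sample 2 (-0.50) or 3 (-0.50). The GIF-DTR call was lost without GIF-DTR sample 3 (-0.63), and the call in GIF/ATP4B-DTR without control 1 (-0.55). Slc3a2 is at chr19:8706882-8723369, minus strand (ENSMUSG00000010095.13), with fractional counts in all 11 samples. As a description, the light and heavy chains did not keep 1 ratio: Slc7a11 over Slc3a2 in CPM was 0.147 to 0.214 in control, 0.356 to 0.599 in ATP4B-DTR, 0.081 to 0.142 in GIF-DTR and 0.313 to 0.605 in GIF/ATP4B-DTR. Per kilobase of exon, control Slc3a2 stood at 43.7 CPM and control Slc7a11 at 2.03 CPM, so the heavy chain's level exceeded that of this light chain.

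Cd44 rose in all 3 lines. The controls had 6.69 and 12.5 CPM, and the lines 33.1, 19.2 and 15.4 CPM (ATP4B-DTR), 21.2, 21.8 and 26.2 CPM (GIF-DTR) and 27.2, 39.3 and 29.8 CPM (GIF/ATP4B-DTR). No line sample overlapped with control. The log2 fold change was 1.24 ± 0.35 in ATP4B-DTR (adjusted p = 0.0276), 1.27 ± 0.35 in GIF-DTR (adjusted p = 0.0312) and 1.75 ± 0.35 in GIF/ATP4B-DTR (adjusted p = 0.00355). The first was lost without control 1 (0.85) or ATP4B-DTR sample 1 (0.84), and that in GIF-DTR without control 1 (0.89) or any of its own samples (1.33, 1.31 and 1.16 without samples 1, 2 and 3). The call in GIF/ATP4B-DTR was kept in all 20 alternatives. Over these the Cd44 value ranged from 0.84 to 1.79 in ATP4B-DTR, from 0.89 to 2.21 in GIF-DTR and from 1.36 to 2.26 in GIF/ATP4B-DTR. Counts are per gene, so variant and standard CD44 were not separated. Cd44 is at chr2:102811141-102901665, minus strand (ENSMUSG00000005087.17).

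Leukocytes, macrophages and fibroblasts also express Cd44. The 12 leukocyte and T cell markers summed to 6.24 to 12.3 CPM in control, 4.80 to 5.40 in ATP4B-DTR, 7.52 to 11.2 in GIF-DTR and 3.46 to 4.36 in GIF/ATP4B-DTR. The 13 macrophage and monocyte markers summed to 21.9 to 99.2, 65.6 to 117, 140 to 211 and 56.0 to 93.2 CPM, and the 9 fibroblast markers to 58.6 to 557, 115.5 to 343.5, 242.5 to 790 and 110 to 298 CPM. In GIF/ATP4B-DTR the leukocyte sums were below both controls, and the macrophage and fibroblast sums lay between the 2 controls, which were far apart. In GIF-DTR the macrophage sums were above both controls. Only 3 of the 12 leukocyte markers had enough counts to be tested. The part of these cells in the Cd44 change was not tested. The 13 proliferation markers rose in every line, all 13 of 13 passing in each, with sums of 305 to 405 CPM in control and between 745.5 and 1180 CPM in the lines. Sums of 9 other markers of spasmolytic polypeptide-expressing metaplasia, with the 10 genes left out, were 1404 to 1929 CPM in control and 1902 to 4205 CPM in the lines.

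**Figure D2:**
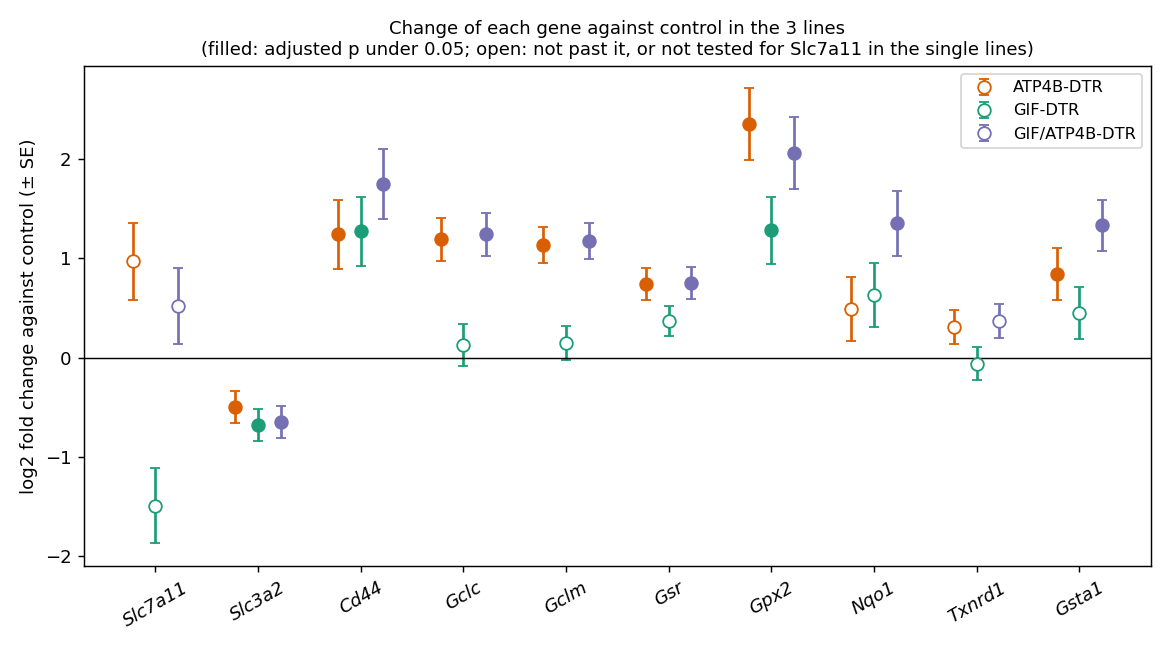
Log2 fold change against control (y axis, points, with SE bars) of each of the 10 genes in the 3 lines (colours). Filled points have an adjusted p under 0.05 and open points do not or, for Slc7a11 in the single lines, were not tested; Gpx2 has the highest points and Slc3a2 is below 0 in all 3 lines.

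The subunits of glutamate-cysteine ligase, which catalyses the rate-limiting step of glutathione synthesis, rose together in the lines aimed at parietal cells. The catalytic subunit Gclc had 165 and 118 CPM in control, 348, 341.5 and 281 CPM in the ATP4B-DTR samples, 123, 184 and 159 CPM in the GIF-DTR samples, and 393, 281.5 and 329 CPM in the GIF/ATP4B-DTR samples. The modifier subunit Gclm had 104 and 86.3 CPM in control, 226, 229 and 173 CPM in the ATP4B-DTR samples, 102, 106.5 and 109 CPM in the GIF-DTR samples, and 253, 181 and 209 CPM in the GIF/ATP4B-DTR samples. For both, every ATP4B-DTR and GIF/ATP4B-DTR sample was above every control and GIF-DTR sample. Gclc rose by 1.19 ± 0.22 in ATP4B-DTR (adjusted p = 0.00378) and 1.24 ± 0.22 in GIF/ATP4B-DTR (adjusted p = 0.00160), and Gclm by 1.13 ± 0.18 (adjusted p = 0.00181) and 1.17 ± 0.18 (adjusted p = 0.000691). GIF-DTR gave 0.13 ± 0.21 for Gclc (adjusted p = 0.728) and 0.15 ± 0.17 for Gclm (adjusted p = 0.611). All 4 calls held in all 20 alternatives. Gclc is at chr9:77754535-77794485 (plus strand, ENSMUSG00000032350.9) and Gclm at chr3:122245557-122270732 (plus strand, ENSMUSG00000028124.15). Gclm counts were fractional in all 11 samples, and Gclc counts in 0.

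Between lines, Gclc and Gclm were the genes of the 9 that passed in GIF/ATP4B-DTR against GIF-DTR, where 2.53% of tested genes passed and 0.336% passed with a higher level. The differences were 1.11 ± 0.19 for Gclc (adjusted p = 0.0106) and 1.02 ± 0.16 for Gclm (adjusted p = 0.00517). With a covariate for Y-linked expression they were 0.95 (adjusted p = 0.589) and 0.85 (adjusted p = 0.535), so neither call was kept. That covariate was estimated from the ATP4B-DTR samples alone, so these values do not separate genotype from Y-linked expression. Gpx2 gave 0.78 (adjusted p = 0.203) and Gsta1 0.88 ± 0.23 (adjusted p = 0.0703) in the same comparison; Gpx2 passed without ATP4B-DTR sample 3 (0.78) and with only the 2 groups fitted (0.76), and Gsta1 with DESeq2 (0.89) and without the filter on low counts (0.86). In all, 8 of the 9 genes had no overlap between the groups' samples, against 26.4% of tested genes. The ratio of Gclc to Gclm in CPM was 1.207 to 1.727 over all 11 samples, with a mean of 1.517 ± 0.137 (SD), although both levels differed between groups. Per kilobase of exon, control Gclc stood at 37.7 CPM and control Gclm at 15.2 CPM. In GIF-DTR against ATP4B-DTR, as a description, Gclc was lower by -1.06 and Gclm by -0.98 on the log2 scale. In the fit, 2 of the 9 genes lay past the threshold in that comparison and 0.49% of all tested genes did, from which nothing is read. The count was 0 without ATP4B-DTR sample 1 or 2 or any 1 GIF-DTR sample, and 1 without GIF/ATP4B-DTR sample 3.

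**Figure D3:**
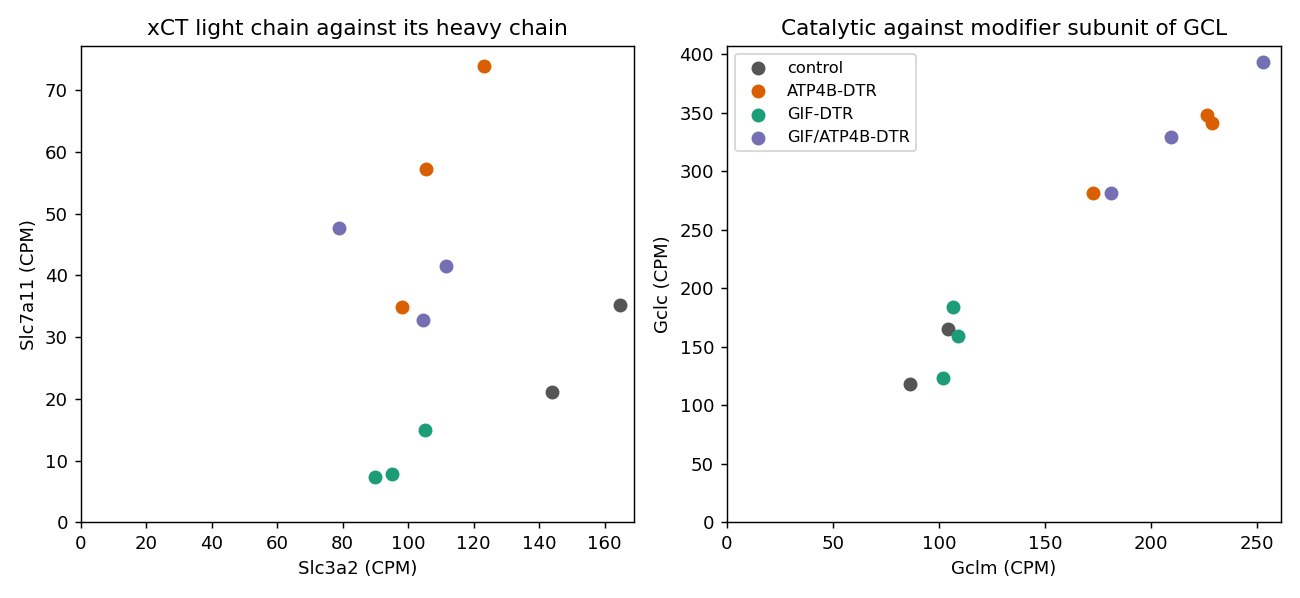
Left, Slc7a11 against Slc3a2, and right, Gclc against Gclm, both axes in CPM, with 1 point per sample coloured by group. On the right the ATP4B-DTR and GIF/ATP4B-DTR samples sit above 281 CPM of Gclc and all others at or below 184; on the left the 3 GIF-DTR samples are lowest on the y axis.

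Glutathione reductase, Gsr, which returns oxidised glutathione to its reduced form, had 180.5 and 137.5 CPM in control and 262, 295.5 and 238 CPM in the ATP4B-DTR samples. It had 223, 198 and 198 CPM in the GIF-DTR samples and 257.5, 258.5 and 288 CPM in the GIF/ATP4B-DTR samples. All line samples were above both controls. Gsr rose by 0.74 ± 0.16 in ATP4B-DTR (adjusted p = 0.00728, lost without control 2, at 0.55) and by 0.75 ± 0.16 in GIF/ATP4B-DTR (adjusted p = 0.00365). In GIF-DTR the value was 0.37 ± 0.15 and did not pass (adjusted p = 0.12). Gsr lies at chr8:33652523-33698163, plus strand (ENSMUSG00000031584.16).

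Gpx2, the gastrointestinal glutathione peroxidase that reduces peroxides, had the largest fold change of the 9 genes in each line, in GIF-DTR by less than its SE over Cd44. Its levels were 81.7 and 57.7 CPM in control, 435, 450 and 182.5 CPM in the ATP4B-DTR samples, 156, 155 and 197 CPM in the GIF-DTR samples, and 313, 316 and 244.5 CPM in the GIF/ATP4B-DTR samples. ATP4B-DTR sample 3 was lower than its group's other samples, yet above both controls. Gpx2 rose by 2.35 ± 0.36 in ATP4B-DTR (5.10-fold, adjusted p = 0.00181), 2.06 ± 0.36 in GIF/ATP4B-DTR (adjusted p = 0.00153) and 1.28 ± 0.34 in GIF-DTR (adjusted p = 0.0291). The GIF-DTR call was lost without control 1 (1.56), control 2 (1.05), GIF-DTR sample 2 (1.34) or GIF-DTR sample 3 (1.15), and with the Y-linked covariate (1.74). The interaction for Gpx2 was -1.57 ± 0.45 (adjusted p = 0.134), below the sum of the single changes, and passed with DESeq2 (-1.55) and without ATP4B-DTR sample 3 (-1.88). As a description, GIF-DTR stood -1.07 on the log2 scale from ATP4B-DTR. Gpx2 lies at chr12:76792333-76795554, minus strand (ENSMUSG00000042808.8).

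Nqo1, a quinone reductase that is a standard NRF2 target, was higher in GIF/ATP4B-DTR. The controls had 536 and 401 CPM, ATP4B-DTR 459, 603 and 918 CPM, GIF-DTR 743, 805 and 629.5 CPM, and GIF/ATP4B-DTR 1595, 826 and 1158 CPM. Nqo1 rose by 1.35 ± 0.33 in GIF/ATP4B-DTR (adjusted p = 0.00893, lost without control 2, at 1.15). Values were 0.49 (adjusted p = 0.297) in ATP4B-DTR, whose samples overlapped with control, and 0.63 (adjusted p = 0.203) in GIF-DTR, whose samples did not. Txnrd1, the cytosolic thioredoxin reductase, had 265 and 188 CPM in control, 269.5, 301 and 270 CPM in the ATP4B-DTR samples, 197, 224.5 and 228 CPM in the GIF-DTR samples, and 272, 269 and 334 CPM in the GIF/ATP4B-DTR samples. No comparison with control passed: 0.31 (adjusted p = 0.229), -0.06 (adjusted p = 0.840) and 0.37 ± 0.17 (adjusted p = 0.119), though the last passed without control 1 (0.64). Nqo1 is at chr8:107388225-107403206, minus strand (ENSMUSG00000003849.8), and Txnrd1 at chr10:82833951-82897712, plus strand (ENSMUSG00000020250.10).

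Gsta1, an alpha-class glutathione transferase that conjugates glutathione to electrophiles, had the highest level of the 10 genes per kilobase of exon (1748 CPM in control). The controls had 1994 and 1349 CPM, ATP4B-DTR 2483, 3743 and 2744 CPM, GIF-DTR 2375, 2569 and 1898 CPM, and GIF/ATP4B-DTR 4822, 3536 and 4262 CPM. Only the GIF-DTR samples overlapped with control. Gsta1 rose by 0.84 ± 0.26 in ATP4B-DTR (adjusted p = 0.0387) and 1.33 ± 0.26 in GIF/ATP4B-DTR (adjusted p = 0.00289), and gave 0.45 in GIF-DTR (adjusted p = 0.260). The ATP4B-DTR call was lost without control 2 (0.58), ATP4B-DTR sample 2 (0.65) or 3 (0.90), GIF-DTR sample 1 (0.84) and GIF/ATP4B-DTR sample 3 (0.84). Gsta1 lies at chr9:78230656-78242684, plus strand (ENSMUSG00000074183.3). Its counts were fractional in 9 samples, so its split with near copies such as Gsta2 is uncertain; Gsta2, with fractional counts in all 11 samples, rose by 1.44 in ATP4B-DTR, by 1.79 in GIF/ATP4B-DTR and by 0.74 in GIF-DTR (adjusted p = 0.0446). That GIF-DTR call for Gsta2 held in 11 of 20 alternatives; it was lost without control 1 (0.98) or 2 (0.54), any GIF-DTR sample (0.67, 0.77 and 0.78 without samples 1, 2 and 3) or any GIF/ATP4B-DTR sample (0.74 each), and with the Y-linked covariate (0.26).

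GIF/ATP4B-DTR and ATP4B-DTR differed in 0 of the 9 genes by edgeR (log2 fold changes from -0.29 to 0.85), with 1 at an unadjusted p under 0.05 and 0 by DESeq2. In that comparison 0% of tested genes passed in edgeR, where 1554 had an unadjusted p under 0.05, and 1.87% passed by DESeq2. The interaction passed for 0 of the 9, with 2 at an unadjusted p under 0.05 and 1 by DESeq2. Of tested genes 0.651% passed it in edgeR, where 2329 had an unadjusted p under 0.05, and 4.9% passed it by DESeq2. A pattern seen after the values were known was that all 6 ATP4B-DTR and GIF/ATP4B-DTR samples lay above the other 5. Gclc, Gclm, Gsr and Txnrd1 showed it, as did 2.1% of all tested genes, and it is a description. Slc7a11, Cd44, Gpx2, Nqo1 and Gsta1 did not show it, and Slc3a2 did not either.

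Over the 11 samples, the genes whose log2 CPM most resembled that of Slc7a11 were Pfkfb4 (Pearson r = 0.939), Necap1 (0.933), Krt78 (0.931), Me1 (0.927) and Adgrg6 (0.923), among 10080 candidates. Of the other 9 genes, Gclc (0.801), Gclm (0.778) and Txnrd1 (0.755) came closest to Slc7a11 and Cd44 (0.023) was farthest. Those most like Cd44 were Nap1l1 (0.964), Hmgb1 (0.956) and Cd14 (0.948), the last a monocyte and macrophage gene, and those most like Gpx2 were Gsdmc4 (0.979), Tbce (0.979) and Dynlt1f (0.975). The samples share libraries and group structure, and these values describe likeness over samples only. Krt78 is a keratin, and the 11 squamous markers summed to 1.84 to 2.05 CPM in control, 3.36 to 20.98 in ATP4B-DTR, 2.71 to 5.91 in GIF-DTR and 3.59 to 9.48 in GIF/ATP4B-DTR, with Krt5, Krt6a, Trp63 and Sprr3 at 0 in every sample. Their part in the levels of Slc7a11 was not tested.

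The rest of the pathway was counted from lists of which the 10 genes are no part. Together the lists hold 153 other tested genes. In ATP4B-DTR 34 of them rose and 13 fell (22.2% and 8.5%, against 12.2% and 9.39% of all tested genes). In GIF-DTR 17 rose and 15 fell (11.1% and 9.8%, against 9.97% and 6.82%), and in GIF/ATP4B-DTR 44 rose and 25 fell (28.8% and 16.3%, against 18.2% and 15.4%). Without control 2 those that rose and fell numbered 13 and 8 in ATP4B-DTR (background 3.51% and 5%), 6 and 11 in GIF-DTR (2.72% and 2.92%), and 25 and 17 in GIF/ATP4B-DTR (8.91% and 9.68%). With the Y-linked covariate they numbered 23 and 8 (7.52% and 4.9%), 2 and 2 (2.18% and 0.759%), and 45 and 24 (17.7% and 14.9%) in the same order. The shares called in either direction that each list is read against below are the 21.6%, 16.8% and 33.6% of all tested genes given above for ATP4B-DTR, GIF-DTR and the double line.

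Of 11 genes of glutathione synthesis and turnover, 4 rose and 1 fell in ATP4B-DTR (45.5%), 1 rose and 1 fell in GIF-DTR (18.2%), and 3 rose and 2 fell in GIF/ATP4B-DTR (45.5%, median log2 fold change 0.68). Glutathione synthetase Gss, which completes the step after glutamate-cysteine ligase, rose from 96.0 ± 22.9 CPM to 288 ± 21.7 CPM in GIF/ATP4B-DTR (log2 fold change 1.58 ± 0.21, adjusted p = 0.000277), by 1.34 in ATP4B-DTR, and by 0.98 ± 0.20 in GIF-DTR (adjusted p = 0.00914, lost without control 2, at 0.75, and with the Y-linked covariate, at 0.88). Chac1, which degrades glutathione, fell from 11.55 ± 0.42 CPM in control to 1.44 ± 0.35 CPM with GIF/ATP4B-DTR (adjusted p = 0.00359) and 1.54 ± 0.86 CPM with GIF-DTR (adjusted p = 0.0110, lost with the Y-linked covariate, at -3.42), and had 4.86 ± 3.55 CPM with ATP4B-DTR, which did not pass (adjusted p = 0.157). Its paralog Chac2 rose by 0.95 ± 0.18 in GIF/ATP4B-DTR. It also rose by 0.67 in ATP4B-DTR, a call lost without control 2 (0.51) or ATP4B-DTR sample 1 or 2 (0.59 each) and with only the 2 groups fitted (0.66). Oplah, the 5-oxoprolinase of glutathione turnover, fell by 0.94 ± 0.13 in GIF/ATP4B-DTR, and by 0.59 in ATP4B-DTR (lost without control 2, at -0.55, and with the Y-linked covariate, at -0.48).

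Of 10 other light chains and cystine suppliers, 1 rose and 1 fell in ATP4B-DTR (20%), and 1 rose and 4 fell in each of the other lines (50%). The light chain Slc7a8 fell in all 3, in GIF/ATP4B-DTR from 135 ± 9.41 to 6.96 ± 1.63 CPM (-4.28 ± 0.25, adjusted p = 4.00e-06), and its GIF-DTR call was lost with the Y-linked covariate (-1.41). Slc7a5, the LAT1 light chain, fell by 1.21 ± 0.22 in GIF-DTR (adjusted p = 0.00591, lost without control 2, at -0.89, and with the Y-linked covariate, at -0.60) and by 0.75 in GIF/ATP4B-DTR (lost without control 2, at -0.43, or GIF/ATP4B-DTR sample 1, at -0.62). In ATP4B-DTR Slc7a5 did not pass (-0.39, adjusted p = 0.244). Cbs, which makes cystathionine on the way from methionine to cysteine, fell from 7.22 ± 0.69 CPM to 2.03 ± 1.16 CPM in GIF/ATP4B-DTR. In ATP4B-DTR it gave 0.04 (adjusted p = 0.953), and its fall of 1.64 in GIF-DTR was lost without either control, without any 1 GIF-DTR sample and with the Y-linked covariate (values from -2.00 to -1.50 by setting). Slc1a5, a glutamine carrier, rose by 0.68 ± 0.14 in GIF/ATP4B-DTR. Its rise of 0.66 in ATP4B-DTR was lost without control 1 (0.63) or 2 (0.69), and that of 0.59 in GIF-DTR without either control (0.56 and 0.62), without GIF-DTR sample 2 (0.47) or 3 (0.59), with the Y-linked covariate (0.80) and with only the 2 groups fitted (0.58).

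Among 14 CD44 partners 1 rose and 2 fell in GIF/ATP4B-DTR (21.4%), 1 and 1 did so with ATP4B-DTR (14.3%) and 0 and 1 with GIF-DTR (7.14%), each a smaller share than that of all tested genes. Rdx (radixin), which links CD44 to actin, fell by 1.61 ± 0.32 in GIF/ATP4B-DTR (adjusted p = 0.00317), where it had 10.6 ± 1.81 CPM against 32.3 ± 18.2 CPM in control, and did not pass in the single lines (-0.43 and 0.03). Over the alternatives its GIF/ATP4B-DTR value ranged from -2.09 to -0.88. Ezr (ezrin), of the same family, fell by 0.88 in GIF/ATP4B-DTR. Its falls of 0.60 in ATP4B-DTR and 0.65 in GIF-DTR were each lost without control 1 (-0.38 and -0.43), with the Y-linked covariate (-0.71 and -0.81) and with only the 2 groups fitted (-0.62 and -0.66). The first was also lost without any 1 ATP4B-DTR sample (-0.56 to -0.63) and the second without GIF-DTR sample 1 (-0.59) or 3 (-0.63). Hyal2, a hyaluronidase, rose by 0.68 ± 0.17 in GIF/ATP4B-DTR (lost without control 2, at 0.60) and did not pass in the single lines (0.18 and 0.37). Spp1 (osteopontin), a CD44 ligand named after its values were seen, was the partner that rose in ATP4B-DTR, by 2.82 ± 0.57 (adjusted p = 0.00837, lost without control 2, at 2.75), with 1.76 (adjusted p = 0.0541) for GIF-DTR and 1.31 (adjusted p = 0.0860) for GIF/ATP4B-DTR. The ATP4B-DTR value of Spp1 ranged from 2.06 to 3.68 over the alternatives.

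Of 24 other glutathione transferases, 10 rose and 3 fell in GIF/ATP4B-DTR (54.2%, median 0.54), 9 rose and 1 fell in ATP4B-DTR (41.7%), and 6 rose in GIF-DTR (25%). Mgst1 rose by 2.36, 2.08 and 1.54 in those lines, the last lost with the Y-linked covariate (1.56, adjusted p = 0.0642). Gstm3, a mu-class transferase with fractional counts in all 11 samples, rose by 2.44, 2.96 and 2.14 in the same order, the last lost with that covariate (1.57). Gstm7 fell by 1.02 in GIF/ATP4B-DTR (lost without control 1, at -0.98, or 2, at -1.07), and Gstk1, the kappa-class enzyme, by 0.75 there (lost without control 1, at -0.47) and by 1.01 in ATP4B-DTR. Over the alternatives the count of transferases that rose went as low as 7, 6 and 0. The share of all tested genes that rose moved with the setting too, for example to 17.7%, 7.52% and 2.18% with the Y-linked covariate. The lower counts are therefore not read as particular to the transferases.

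Of 13 other genes of the reductase and peroxidase list, 4 rose and 3 fell in GIF/ATP4B-DTR (53.8%), against 3 and 3 for ATP4B-DTR (46.2%) and 2 and 1 for GIF-DTR (23.1%). Esd, which hydrolyses S-formylglutathione, rose by 1.22 ± 0.20 in GIF/ATP4B-DTR and Glrx5, a glutaredoxin, by 0.73 ± 0.16. Hagh, of the glyoxalase pathway, fell by 0.72 ± 0.14 there, and Glo1, the other glyoxalase, by 0.48 ± 0.15 (lost without either control, at -0.49 and -0.48, or GIF/ATP4B-DTR sample 2, at -0.48, or 3, at -0.43). In ATP4B-DTR these 4 genes gave 0.88, 0.69, -0.54 and -0.58, and each call was lost without control 2 (0.65, 0.61, -0.58 and -0.58). There Hagh and Glo1 also lost it without control 1 (-0.49 and -0.59), Glo1 without ATP4B-DTR sample 2 (-0.54), and Esd, Hagh and Glo1 with the Y-linked covariate (0.81, -0.47 and -0.34). In GIF-DTR Glo1 fell by 0.75 (lost with the covariate, at -0.38), and the rise of 0.58 in Glrx5 was lost without control 1 (0.66) or 2 (0.50), GIF-DTR sample 1 (0.48) or 3 (0.55), and with the covariate (0.85).

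Of 14 thioredoxin-system genes 5 rose and 1 fell in GIF/ATP4B-DTR (42.9%), 4 rose in ATP4B-DTR (28.6%) and 0 passed in GIF-DTR by edgeR. In GIF-DTR 2 of the 14 had an unadjusted p under 0.05 and 2 passed by DESeq2. Of all tested genes there, 4668 had an unadjusted p under 0.05 in edgeR and 22.6% passed by DESeq2. Srxn1 (sulfiredoxin) rose by 1.39 ± 0.22 in GIF/ATP4B-DTR and by 1.30 in ATP4B-DTR, and gave 0.35 in GIF-DTR (adjusted p = 0.295). Prdx1, a peroxiredoxin, rose by 0.95 in GIF/ATP4B-DTR (lost without control 2, at 0.74, or GIF/ATP4B-DTR sample 2, at 0.78), and Prdx5 fell by 0.84. The rise of 0.99 in Prdx1 in ATP4B-DTR was lost without control 1 (1.23) or 2 (0.78), ATP4B-DTR sample 1 (0.94) or 2 (0.77), with the Y-linked covariate (1.07) and with only the 2 groups fitted (0.98). Of 11 catalase and superoxide genes 1 rose and 2 fell in GIF/ATP4B-DTR (27.3%), and 1 fell in each single line (9.09%), again smaller shares than those of all tested genes. Catalase, Cat, fell in every line, from 289 ± 13.4 CPM in control to 67.2 ± 12.5 CPM with ATP4B-DTR, 112 ± 7.30 CPM with GIF-DTR and 53.0 ± 8.04 CPM with GIF/ATP4B-DTR. Cyba, an NADPH oxidase subunit, rose by 1.00 in GIF/ATP4B-DTR (lost without control 2, at 0.89). Sod2, the mitochondrial superoxide dismutase, fell by 0.64 there (lost without control 1, at -0.54, or GIF/ATP4B-DTR sample 3, at -0.60, and with only the 2 groups fitted, at -0.61).

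Of 10 NRF2 regulators 1 rose and 2 fell in every line (30%), a share above the background of the single lines and below that of GIF/ATP4B-DTR. NRF2 itself, Nfe2l2, did not pass in any line (log2 fold change 0.12 in ATP4B-DTR, 0.07 in GIF-DTR, 0.19 in GIF/ATP4B-DTR), nor did Keap1, its inhibitor (0.23, 0.20 and 0.20). Bach1, a repressor at antioxidant response elements, fell by 0.94, 1.27 and 1.48. Nfe2l1, a relative of NRF2, fell by 0.62, 0.56 and 0.74, of which the first was lost without control 1 (-0.50) and the second without control 1 (-0.44) or with the Y-linked covariate (-0.60). Maff, a small MAF protein that pairs with NRF2, rose from 13.2 ± 2.60 CPM in control to 39.5 ± 9.96 CPM in GIF/ATP4B-DTR (1.58 ± 0.33, adjusted p = 0.00419). Its rises of 1.08 in ATP4B-DTR (adjusted p = 0.0358) and 1.04 in GIF-DTR (adjusted p = 0.0497) were lost without either control (0.89 to 1.30) and with the Y-linked covariate (0.86 and 0.72), among other settings: the first passed in 12 and the second in 9 of 20 alternatives.

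Of 25 other textbook NRF2 targets, 8 rose and 1 fell in ATP4B-DTR (36%, median 0.42), 1 rose and 3 fell in GIF-DTR (16%, median 0.07), and 11 rose and 1 fell in GIF/ATP4B-DTR (48%, median 0.39). Without control 2 the numbers that rose were 3, 0 and 6, where 3.51%, 2.72% and 8.91% of all tested genes rose. With the Y-linked covariate they were 3, 0 and 11, where 7.52%, 2.18% and 17.7% rose. The 3 that fell in GIF-DTR became 0 with that covariate (0.759% of all tested genes lower) and without GIF-DTR sample 2 (3.98%) or 3 (2.91%). In GIF/ATP4B-DTR against GIF-DTR 5 were higher and 0 lower (0.57), where 0.336% of all tested genes were higher. The 5 became 0 with the Y-linked covariate (0.00672% of all tested genes higher) or without GIF-DTR sample 1 (0.0606%), GIF-DTR sample 3 (0.0605%) or GIF/ATP4B-DTR sample 3 (0.0741%). The count was 3 without GIF/ATP4B-DTR sample 1 (0.229%). It was 8 without the filter (0.236%), with a stricter filter (0.579%) or with DESeq2 size factors (0.457%), and 11 with DESeq2 (2.27%). Ces1g, a carboxylesterase, rose by 2.82 ± 0.61 in GIF/ATP4B-DTR (adjusted p = 0.00665, lost without control 2, at 2.74, and with only the 2 groups fitted, at 2.85), from 3.50 ± 0.25 CPM to 24.8 ± 21.1 CPM, a wide spread. That value of Ces1g ranged from 1.85 to 3.16 over the alternatives. Its rise of 2.41 in ATP4B-DTR was lost without either control (2.48 and 2.33), with the Y-linked covariate (2.21) and without the filter (2.40), and GIF-DTR gave 1.28 (adjusted p = 0.169). Akr1b8, an aldo-keto reductase, rose from 146.5 ± 40.5 to 603 ± 107 CPM in GIF/ATP4B-DTR (2.04 ± 0.30) and by 1.74 in ATP4B-DTR, and gave 0.71 in GIF-DTR (adjusted p = 0.113). Fth1 (ferritin heavy chain) fell by 1.07 in GIF/ATP4B-DTR and by 1.12 in ATP4B-DTR, and by 0.66 in GIF-DTR, where the call was lost without control 1 (-0.59) or 2 (-0.74) and GIF-DTR sample 2 (-0.54) or 3 (-0.60), with the Y-linked covariate (-0.63) and with only the 2 groups fitted (-0.67).

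**Figure D4:**
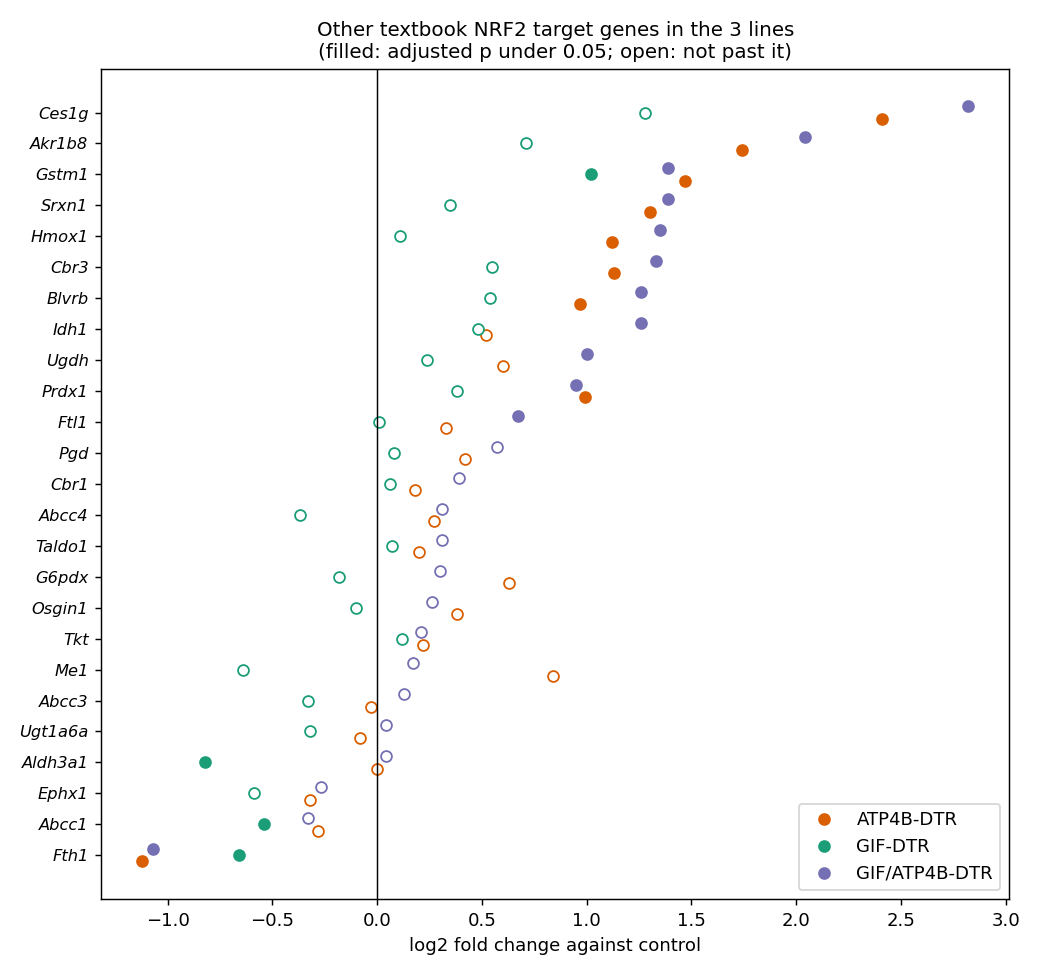
Log2 fold change against control (x axis) of the 25 other textbook NRF2 targets (y axis, ordered by GIF/ATP4B-DTR) in the 3 lines, filled where the adjusted p was under 0.05. The count that rose was 8 for ATP4B-DTR, 1 for GIF-DTR and 11 for GIF/ATP4B-DTR.

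Of 16 textbook ATF4 targets 8 rose and 5 fell in GIF/ATP4B-DTR (81.2%, median 0.20), with 5 and 1 for ATP4B-DTR (37.5%) and 5 and 3 for GIF-DTR (50%). Psat1, a serine synthesis enzyme, rose from 16.4 ± 2.02 CPM in control to 46.6 ± 13.3 CPM with ATP4B-DTR and 47.0 ± 12.1 CPM with GIF/ATP4B-DTR. It also rose by 1.13 in GIF-DTR, a call lost without control 1 (1.01) or 2 (1.26) or GIF-DTR sample 3 (1.10). Cebpb, a stress-response transcription factor, rose by 1.85, 1.69 and 1.71 for ATP4B-DTR, GIF-DTR and the double line, the second lost with the Y-linked covariate (1.71). Trib3, a pseudokinase of the stress response, fell by 1.72 in GIF/ATP4B-DTR (adjusted p = 0.0374), a call lost without either control (-1.36 and -2.01) or any 1 sample of that line (-1.94 to -1.50), and Chac1, given above, fell further. Atf4 itself rose by 0.84 in GIF/ATP4B-DTR and by 0.58 in ATP4B-DTR, the latter lost without control 2 (0.44) or ATP4B-DTR sample 1 (0.55) or 2 (0.46), with the Y-linked covariate (0.62) and with only the 2 groups fitted (0.57), and gave 0.40 in GIF-DTR (adjusted p = 0.122).

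Of 13 ferroptosis and lipid peroxide genes 3 rose and 3 fell in GIF/ATP4B-DTR (46.2%). In each single line 1 rose and 2 fell (23.1%), near the 21.6% and 16.8% of all tested genes. Gpx4, the phospholipid peroxidase, did not pass in any line (0.13, 0.40 and 0.29). Tfrc, the transferrin receptor that takes up iron, rose from 81.4 ± 21.5 CPM in control to 267 ± 44.97 CPM with ATP4B-DTR and 247 ± 73.3 CPM with GIF/ATP4B-DTR, and by 1.27 in GIF-DTR (lost without control 2, at 1.02, and with the Y-linked covariate, at 1.64). Slc40a1, the iron exporter ferroportin, fell by 1.37 in GIF/ATP4B-DTR, a call lost without either control (-1.52 and -1.19) or GIF/ATP4B-DTR sample 2 (-1.43) or 3 (-1.16). Its fall of 1.63 in ATP4B-DTR was lost without control 1 (-1.78) or 2 (-1.45), ATP4B-DTR sample 1 (-1.74), with the Y-linked covariate (-1.44) and with only the 2 groups fitted (-1.65), and GIF-DTR gave -0.05. Ftl1, the ferritin light chain, with fractional counts in all 11 samples, rose by 0.67 in GIF/ATP4B-DTR (lost without control 2, at 0.47, or GIF/ATP4B-DTR sample 3, at 0.52, and with only the 2 groups fitted, at 0.70). It did not pass in ATP4B-DTR (0.33) or GIF-DTR (0.01).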

How the data were processed

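Column-purified RNA of 11 corpus samples gave stranded mRNA libraries, per the labels' protocols. The deposited table holds the authors' expected counts per gene, read as such from the values: 30.7% of nonzero entries are fractional. The build is mm10 per the submitters' processing notes. The aligner, counter and annotation are not given in the sources used here, nor whether counting used strand. Symbols were matched for 99.2% of the 34866 identifiers, and positions came from GENCODE M21, mm10.

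Expected counts were rounded and genes kept by filterByExpr, leaving 14889. edgeR 4.0.16 in R 4.3.3 with TMM scaling fitted a robust quasi-likelihood model with 1 term per group to all 11 samples. The common biological coefficient of variation was 26.6%, and p-values were adjusted by Benjamini-Hochberg over all tested genes. CPM values are TMM-scaled, except the Y-linked sums, and means are given ± SD. Log2 fold changes carry SE. Depth was 20.7 M to 27.9 M counts (M is 1000000), and a floor of 3 counts covers counting error only. On simulated counts for GIF/ATP4B-DTR against control, with 14588 genes and 200 changed 4-fold, edgeR recovered 88.5%, with 3.28% false calls. The simulation gave all genes 1 common spread and changed only those 200, whereas 33.6% of tested genes were called in the data. These rates therefore do not carry over to the calls above.

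The members and lists were chosen with earlier results of these data known. Named genes were the 10 members, per pathway list the called genes with the largest rise and fall in GIF/ATP4B-DTR against control (up to 2 each) and regulators or paralogs of members, and the genes most like Slc7a11 (5), Cd44 and Gpx2 (3 each), by Pearson r of log2 CPM with a prior count of 2. DESeq2 1.42.0 served as an alternative test. Alternatives were DESeq2 size factors, scaling without the 50 most abundant genes, the DESeq2 test, no filter, at least 10 counts in every sample, unrounded counts, no robust moderation, a Y-linked covariate, only the groups compared, and leaving out each sample.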

Additional observations from a re-analysis of the deposited data

Results flagged for a closer look

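Of 162 pathway genes and members screened, 2 passed the test of the interaction, where 0.651% of all tested genes did. Gstm3, a mu-class glutathione transferase, had an interaction of -2.66 ± 0.47 (edgeR adjusted p = 0.0433). Its levels were 5.33 ± 1.03 CPM in control (n = 2), 41.5 ± 13.2 CPM for ATP4B-DTR, 23.6 ± 7.71 CPM for GIF-DTR and 29.0 ± 7.98 CPM for GIF/ATP4B-DTR (SD, n = 3 each), so the rise in the double line was below the sum of the single rises on the log2 scale. Its counts were fractional in all 11 samples, so its split with near copies is uncertain. Cebpb, a transcription factor gene on the ATF4 target list, had an interaction of -1.83 ± 0.32 (edgeR adjusted p = 0.0397). Control had 10.3 ± 1.84 CPM of it, ATP4B-DTR 37.1 ± 5.49 CPM, GIF-DTR 33.2 ± 9.04 CPM, and GIF/ATP4B-DTR 33.7 ± 6.29 CPM. Both interactions fell out of the test with the Y-linked covariate (-1.67 for Gstm3 and -1.87 for Cebpb) and without control 1 or 2, ATP4B-DTR sample 1 or 2, GIF-DTR sample 2 or 3, or GIF/ATP4B-DTR sample 1 or 3, where the values were -2.88 to -2.40 for Gstm3 and -2.03 to -1.66 for Cebpb.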

How the results depend on the processing

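Of the counts of members called, 122 of the values under other settings were within 1.5 times the main count and 17 were not. For ATP4B-DTR against control the count of 7 fell to 4 when only the compared groups were fitted (Slc3a2, Cd44 and Gsta1 were lost). In that fit 17.9% of tested genes passed, against 21.6% in the main fit. Slc3a2 and Gsta1 also lost their calls in ATP4B-DTR with the Y-linked covariate, and Cd44 in both single lines without the filter. For GIF-DTR against control the count of 3 fell to 1 with the Y-linked covariate (Slc3a2 and Gpx2 were lost), and leaving out each sample gave 0 to 3. For GIF/ATP4B-DTR against GIF-DTR it fell from 2 to 0 with that covariate, and for GIF-DTR against ATP4B-DTR also from 2 to 0, with 0 to 3 on leaving out each sample. For the interaction it was 1 (Gpx2) with DESeq2, by which 4.9% of all tested genes passed, and 1 (Gpx2) without ATP4B-DTR sample 3. For GIF/ATP4B-DTR against control leaving out a sample gave 7 to 8. Of the values of single members 740 kept their direction and side of the threshold, 41 no longer passed, 7 came to pass, 5 changed sign and 5 descriptive values moved by more than their SE; for named pathway genes 1631 kept their call and 167 did not. The sign changes were Nqo1 with the Y-linked covariate (-0.03 in ATP4B-DTR and -0.10 in GIF-DTR), Gclc in GIF-DTR without control 2 (-0.09) or GIF-DTR sample 2 (-0.01), and Txnrd1 in GIF-DTR without control 1 (0.21), none of which passed a test. Leaving out each sample gave -0.09 to 0.40 for that Gclc value and -0.30 to 0.21 for that Txnrd1 value; the cause was not tested. Of all tested genes, those called against control fell without control 2 from 3211 to 1315 in ATP4B-DTR, from 2500 to 871 in GIF-DTR and from 5005 to 2874 in GIF/ATP4B-DTR. The Y-linked covariate left 1849, 438 and 4858, and GIF-DTR kept 1136 without control 1, 1613 without GIF-DTR sample 2 and 1091 without GIF-DTR sample 3. In GIF/ATP4B-DTR against GIF-DTR 376 became 14 with the covariate, 987 with DESeq2, and 195, 188 and 160 without GIF-DTR sample 1, GIF-DTR sample 3 and GIF/ATP4B-DTR sample 3. Over the alternatives the count of list genes that rose went as low as 1 (from 5) for ATF4 targets in GIF-DTR and for the thioredoxin system in GIF/ATP4B-DTR, and 1 (from 4) for glutathione synthesis and the thioredoxin system in ATP4B-DTR. For the reductase and peroxidase list in ATP4B-DTR the 3 that rose and the 3 that fell each went as low as 0. The share of all tested genes that rose moved as well, in GIF-DTR from 9.97% to 2.18% with the Y-linked covariate. A lone control is assumed to vary like the other groups. No paired analysis was possible because only the control titles carry replicate numbers. Counts per sample were at least 149 for every member, and the 2 controls limit the precision of every comparison with control.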
